A study of Mus musculus with 7 samples.

Results

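The genes described here encode the NF-kappa-B transcription factor and its closest regulators in the eye of Agbl5 knockout mice: the 5 subunit genes (Nfkb1, Nfkb2, Rela, Relb and Rel), the cytoplasmic inhibitors Nfkbia and Nfkbib, the nuclear cofactors Bcl3 and Nfkbiz, and Tnfaip3, an inhibitor of the signal that releases the factor. These 10 genes, of 54532 in the deposited table, were selected by name. The set was selected on measured values, because Bcl3 was high and Tnfaip3 low in knockout libraries, so every knockout value of the 10 genes is given as a description: differences carry an SE and no p-value, and no count of calls among them is evidence. Messenger RNA was sequenced in 7 libraries: 3 from knockout mice, 2 from heterozygous mice and 2 from wildtype mice. Heterozygous and wildtype libraries together are called controls.

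Agbl5 encodes a cytosolic carboxypeptidase that removes glutamates added to tubulin, and the study asked what the gene does in retinal photoreceptors. The labels give the genotype as knockout, heterozygous or wildtype, with no strain, age, allele or treatment. They name the tissue as eyeball, whereas the protocol speaks of retina. They do not say whether the replicates of a genotype are separate animals, so p-values measure only the spread between these libraries. That spread may be technical where the sex of the libraries, given below, does not tell them apart. Agbl5 itself had 1.53, 1.73 and 1.26 FPKM in knockout 1, 2 and 3, against 4.21 and 5.34 FPKM in heterozygous 1 and 2, and 9.89 and 8.56 FPKM in wildtype 1 and 2. The 3 genotypes did not overlap, and knockout was lower than wildtype by limma (log2 difference -2.03 ± 0.13 (SE), adjusted p = 0.00406), a call that did not hold when either wildtype library was left out (adjusted p of 0.0768 and 0.0728), without both lens-rich libraries described next (adjusted p = 0.0518) or under a replicate block (adjusted p = 0.0841).

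FPKM, the deposited unit, is the number of fragments scaled to gene length and library size, so levels of different genes can be set side by side. Reads recovered from these values came to 11919395 to 13950310 per library, so that 1 read over 1 kilobase of exons was worth 0.0663 to 0.0766 FPKM. Knockout 1 and heterozygous 1 carried much lens RNA (Cryaa, a lens crystallin, at 2541 and 1733 FPKM), against 1.11 to 12.3 FPKM in the other libraries. Knockout 3 and wildtype 2 had Xist at 158 and 181 FPKM and no Ddx3y, a Y-linked gene, whereas the other libraries had Ddx3y at 15.3 to 17.7 FPKM, so sexes were mixed within these genotypes. Knockout 3 and wildtype 2 thus did not come from the same animal as the other libraries of their genotype.

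NF-kappa-B is a dimer drawn from the 5 subunits. In resting cells the inhibitors encoded by Nfkbia and Nfkbib hold it in the cytoplasm. Signals from TNF, interleukin-1 and Toll-like receptors activate the IKK kinases, which mark the inhibitors for destruction, and the freed dimer enters the nucleus and binds kappa-B sites in DNA. Among the genes it switches on are its own brakes, Nfkbia and Tnfaip3. In the retina this pathway is best known from microglia, Müller glia and injured photoreceptors.

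Because this feedback works through kappa-B sites at the genes themselves, the start sites of the 10 genes were searched for the kappa-B consensus on both strands, in windows of 250 bases before and 50 after each start in RefSeq (build GRCm38.p6). Windows were found for 7 of the 10 genes, 10 windows in all, and none was found for Nfkb1, Relb and Nfkbiz. The consensus occurred in 7 windows of 5 genes (Nfkb2, Rel, Nfkbia, Bcl3 and Tnfaip3), and not in those of Rela and Nfkbib. Of all 32851 windows of the genome table, 8.46% held it. The 9 distinct sites are given here, each as 30 bases read 5′ to 3′ on the gene's strand with the matched bases in capitals, because they show which members of the set carry the consensus near their own start.

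Bcl3, chr7:19822734-19822763, minus strand: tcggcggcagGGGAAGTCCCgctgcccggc
Tnfaip3, chr10:19015516-19015545, minus strand: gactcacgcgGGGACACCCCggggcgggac
Tnfaip3, chr10:19015403-19015432, minus strand: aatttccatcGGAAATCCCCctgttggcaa
Nfkbia, chr12:55492657-55492686, minus strand: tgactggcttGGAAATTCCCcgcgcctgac
Rel, chr11:23771041-23771070, minus strand: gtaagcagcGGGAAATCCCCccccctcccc
Nfkb2, chr19:46304689-46304718, plus strand: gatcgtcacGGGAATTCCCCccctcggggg
Nfkb2, chr19:46304716-46304745, plus strand: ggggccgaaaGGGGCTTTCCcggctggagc
Nfkb2, chr19:46305449-46305478, plus strand: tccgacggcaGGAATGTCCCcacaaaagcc
Nfkb2, chr19:46305695-46305724, plus strand: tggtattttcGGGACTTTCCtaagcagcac

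Where a run of capitals is 11 bases long, overlapping matches on both strands share it. The stricter form GGGANTTTCC, which is one case of the consensus, was present in windows of Nfkb2 (plus strand, the last of its sites) and of Nfkbia (on the strand opposite to the one printed), and in 0.411% of all windows. The 250 bases before the Nfkbia start give that site its context, since Nfkbia is the member whose feedback through kappa-B sites is the textbook case; here too the capitals mark the match.

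Nfkbia, chr12:55492648-55492897, minus strand: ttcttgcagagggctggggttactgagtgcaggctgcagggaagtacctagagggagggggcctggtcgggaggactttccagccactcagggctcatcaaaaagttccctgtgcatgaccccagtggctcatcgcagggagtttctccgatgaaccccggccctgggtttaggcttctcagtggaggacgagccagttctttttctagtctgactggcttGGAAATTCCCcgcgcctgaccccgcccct

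A further motif, TTCNNNGAA, which STAT factors can bind, was searched on both strands as well. It occurred in a window of 1 member, Nfkb2, and in 8.30% of all windows. A match says only that these letters are present; binding was not measured in this study.

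Across the 10 genes, knockout libraries held more Bcl3, Nfkb2, Nfkbiz, Rela and Nfkb1 than every control library and less Tnfaip3, while Relb, Rel, Nfkbia and Nfkbib overlapped between the groups. The differences were unequal: the mean of Bcl3 was 13.3 times that of controls, Nfkb2 1.90 times and Nfkbiz 1.38 times, whereas Tnfaip3 was at 0.783 times. Of the 9 genes that could be tested, which had a mean of at least 1 FPKM, 6 did not overlap between knockout and controls; over all 15472 tested genes 13.0% did not overlap. These knockout values chose the set, so the count is a description only.

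**Figure D1:**
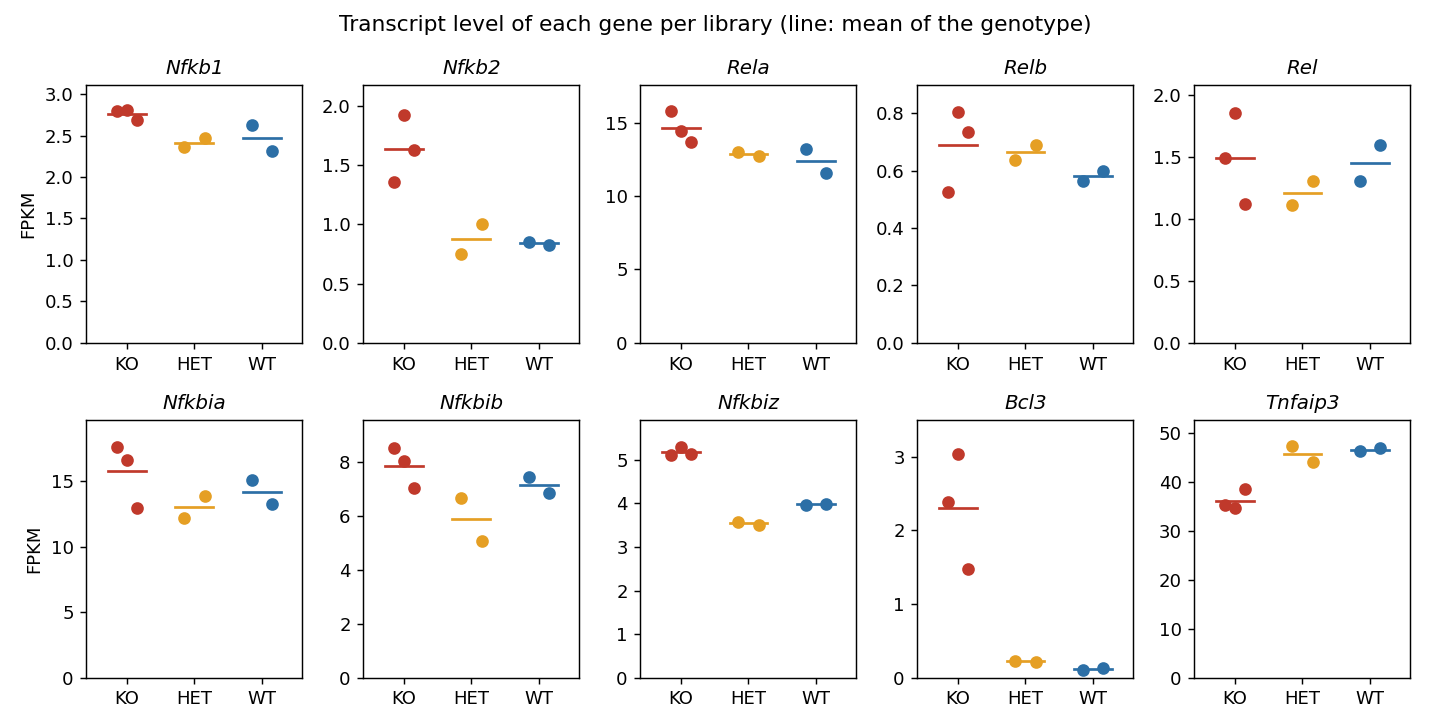
FPKM of the 10 genes in each library (points), with knockout (KO, n = 3), heterozygous (HET, n = 2) and wildtype (WT, n = 2) side by side and the genotype mean as a line; each panel has its own axis from 0. Bcl3 is at 1.48 to 3.04 FPKM in knockout and at 0.111 to 0.229 FPKM in controls, and Tnfaip3 is the one gene whose knockout points all lie below the controls.

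Bcl3 is an atypical inhibitor family member that sits in the nucleus, binds dimers of the Nfkb1 and Nfkb2 products and can turn them into activators. The gene (ENSMUSG00000053175) lies on the minus strand of chromosome 7 from 19808462 to 19822770 in GRCm38 and has 11 exons in GENCODE M21. It had 2.38, 3.04 and 1.48 FPKM in knockout 1, 2 and 3, against 0.229 and 0.217 FPKM in heterozygous 1 and 2, and 0.111 and 0.134 FPKM in wildtype 1 and 2. Every knockout library was thus well above every control library, and the knockout libraries also differed most among themselves. The recovered reads behind these values were 78, 106 and 50 in knockout libraries, against 8 and 7 in heterozygous and 4 and 5 in wildtype libraries, so the control levels rest on few reads. Bcl3 averaged 2.30 ± 0.783 FPKM in knockout (SD, n = 3) and 0.172 ± 0.0590 FPKM in controls (SD, n = 4). On the scale of log2(FPKM + 1), which understates changes at such low levels, the difference was 1.46 ± 0.18 (SE) against all controls, 1.40 ± 0.23 against heterozygous and 1.53 ± 0.23 against wildtype. With a pseudocount of 0.1 in place of 1 the first of these was 3.11. Bcl3 passed the filter on low values only through its knockout libraries, as did Nfkb2, so both had to differ to be among the tested genes.

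Nfkbiz encodes IkappaB-zeta, the other nuclear cofactor in the set, which acts with the Nfkb1 product at a subset of inflammatory genes. It lies on the minus strand of chromosome 16, from 55811375 to 55838899. Its level was 5.11, 5.30 and 5.13 FPKM in knockout 1, 2 and 3, against 3.58 and 3.51 FPKM in heterozygous and 3.96 and 3.99 FPKM in wildtype libraries. The replicates lay close together in every genotype, and the order was knockout, wildtype, heterozygous with no overlap. The log2 difference of knockout was 0.38 ± 0.07 (SE) against all controls, 0.44 ± 0.07 against heterozygous and 0.31 ± 0.07 against wildtype.

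Among the subunits, Rela and Nfkb1 form the classical dimer. Rela, the subunit that activates transcription, lies on the plus strand of chromosome 19 from 5637483 to 5648130. It had 15.8, 14.4 and 13.7 FPKM in knockout 1, 2 and 3, against 13.0 and 12.7 FPKM in heterozygous and 13.2 and 11.5 FPKM in wildtype libraries. The gap between the lowest knockout and the highest control library was small beside the spread within knockout, and the log2 difference was 0.20 ± 0.07 against all controls. Nfkb1, which encodes p105 and its product p50, a subunit without an activation domain of its own, lies on the minus strand of chromosome 3 from 135584655 to 135691547. It had 2.80, 2.80 and 2.69 FPKM in knockout libraries, against 2.37 and 2.46 FPKM in heterozygous and 2.62 and 2.31 FPKM in wildtype libraries. Here wildtype 1 came close to the lowest knockout library, and the log2 difference was 0.13 ± 0.07 against all controls.

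Nfkb2 and Relb form the dimer of the alternative pathway, which the kinase NIK starts by having the Nfkb2 product p100 cut to p52. Nfkb2, on the plus strand of chromosome 19 from 46304320 to 46312385, had 1.36, 1.92 and 1.62 FPKM in knockout 1, 2 and 3, against 0.753 and 1.00 FPKM in heterozygous and 0.852 and 0.827 FPKM in wildtype libraries. The lowest knockout library was above the highest control library, and the log2 difference was 0.50 ± 0.12 against all controls. Exons of Nfkb2 share 531 bases with the RNA gene AC114539.1 and 299 bases with Psd, both on the opposite strand, and the libraries do not mark the strand. Psd averaged 60.2 FPKM in knockout and 49.3 FPKM in controls, and the part of either gene in the Nfkb2 values was not tested. Relb, on the minus strand of chromosome 7 from 19606217 to 19629438, had 0.525, 0.803 and 0.734 FPKM in knockout 1, 2 and 3, against 0.638 and 0.690 FPKM in heterozygous and 0.563 and 0.597 FPKM in wildtype libraries. Knockout 1 was the lowest library of all and knockout 2 the highest, so the groups overlapped; the mean was under 1 FPKM and Relb was not tested.

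Rel encodes c-Rel, a subunit best known from lymphocytes, and lies on the minus strand of chromosome 11 from 23736847 to 23770970. It had 1.49, 1.85 and 1.12 FPKM in knockout libraries, against 1.11 and 1.30 FPKM in heterozygous and 1.30 and 1.59 FPKM in wildtype libraries. Its groups overlapped and its log2 difference against all controls, 0.09 ± 0.13, was within its error and turned negative (-0.02) without knockout 2.

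Nfkbia encodes IkappaB-alpha, the inhibitor that is destroyed and remade within each round of signalling. It lies on the minus strand of chromosome 12 from 55489410 to 55492647. Its level was 17.7, 16.6 and 13.0 FPKM in knockout 1, 2 and 3, against 12.2 and 13.9 FPKM in heterozygous and 15.1 and 13.3 FPKM in wildtype libraries. Knockout 1 and 2 were the highest libraries, but knockout 3 lay among the controls, and the log2 difference was 0.19 ± 0.11 against all controls. Nfkbib encodes IkappaB-beta, an inhibitor that turns over more slowly, and lies on the minus strand of chromosome 7 from 28758251 to 28767512. It had 8.54, 8.04 and 7.05 FPKM in knockout libraries, against 6.69 and 5.09 FPKM in heterozygous and 7.47 and 6.85 FPKM in wildtype libraries. Wildtype 1 was above knockout 3, so the groups overlapped, and heterozygous 2 was the lowest library. Its log2 difference was 0.37 ± 0.12 against heterozygous and 0.12 ± 0.12 against wildtype.

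Tnfaip3 encodes A20, an enzyme that edits ubiquitin chains on signalling proteins upstream of the IKK kinases and so ends the signal. The gene (ENSMUSG00000019850) lies on the minus strand of chromosome 10 from 19000910 to 19015657 and has 9 exons. It had 35.3, 34.6 and 38.5 FPKM in knockout 1, 2 and 3, against 47.3 and 44.1 FPKM in heterozygous and 46.3 and 46.9 FPKM in wildtype libraries. The highest knockout library was below the lowest control library, which was heterozygous 2. Tnfaip3 averaged 36.1 ± 2.08 FPKM in knockout (SD, n = 3) and 46.1 ± 1.43 FPKM in controls (SD, n = 4). The log2 difference was -0.35 ± 0.05 (SE) against all controls, -0.33 ± 0.07 against heterozygous and -0.36 ± 0.07 against wildtype. Of the 10 genes it was the most abundant in all 7 libraries.

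Over the 9 tested genes, the median log2 difference was 0.20 against all controls, 0.25 against heterozygous and 0.14 against wildtype, beside medians over all tested genes of 0.00, 0.01 and -0.00. In each of these comparisons 8 of the 9 differences were positive and 1, that of Tnfaip3, was negative; against wildtype those of Nfkb1, Rel, Nfkbia and Nfkbib turned negative on the TPM scale, which by itself moved the median of all genes to -0.16. At an adjusted p under 0.05 limma called 0.614% of all tested genes against all controls, among them 2 of the 9, Bcl3 and Tnfaip3, the genes for which the set was chosen. It called 0.323% of all tested genes and 0 of the 9 against wildtype, and 0.317% and 0 of the 9 against heterozygous. Of the 13 alternative settings Bcl3 was called in 7, and not without knockout 1 or 2, heterozygous 2, either wildtype library or both lens-rich libraries; Tnfaip3 was called in 2 and in none that left a library out. Nothing is read from these counts, since the same contrast chose the genes and fixed which of them pass.

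**Figure D2:**
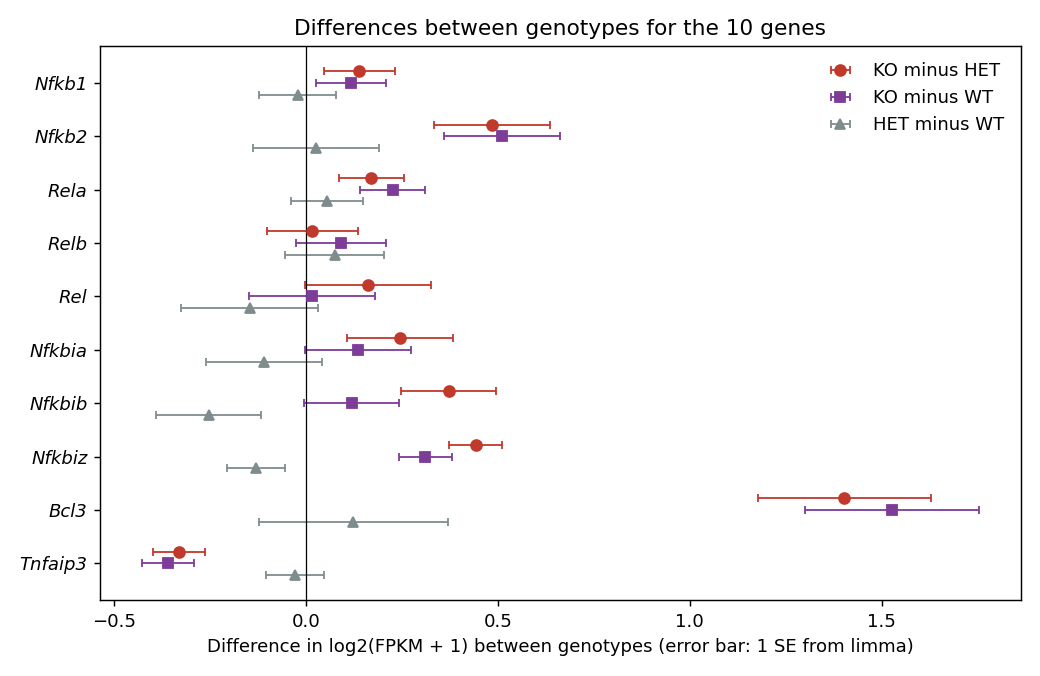
Difference in log2(FPKM + 1) between genotypes for each of the 10 genes, with 1 SE from limma as error bar: knockout minus heterozygous (circles), knockout minus wildtype (squares) and heterozygous minus wildtype (triangles). The 2 knockout differences lie near each other for Bcl3, Nfkb2 and Tnfaip3 and share the knockout libraries, and those of Nfkb1, Rel, Nfkbia and Nfkbib against wildtype are negative on the TPM scale; the heterozygous differences run from -0.25 to 0.12.

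The comparison of heterozygous with wildtype libraries played no part in the choice of the genes and could be tested. None of the 9 tested members was called by limma, with adjusted p from 0.974 to 0.994. Over all 15472 genes limma called 0%, with 619 genes at an unadjusted p under 0.05, and voom on recovered reads called 0 of 14795. Bcl3 differed by 0.12 ± 0.25 on the log2 scale (adjusted p = 0.981) and Tnfaip3 by -0.03 ± 0.07 (adjusted p = 0.987). Bcl3 and Nfkb2 were among the tested genes only through their knockout libraries. For Bcl3, at 4 to 8 reads here, the pseudocount of 1 compresses the difference, which ran from 0.11 to 0.81 over the 13 alternatives. Its SE also draws on the spread of the knockout libraries, so the missing call does not show equal levels. Nfkbib had the most negative value, -0.25 ± 0.14 (adjusted p = 0.974), and Nfkbiz was at -0.13 ± 0.08 (adjusted p = 0.974). Ranges of the 2 genotypes did not overlap for 3 of the 9 tested members (Bcl3 higher, Nfkbib and Nfkbiz lower in heterozygous), a share close to that over all tested genes, 30.0%. The member median was -0.03 and that of all tested genes -0.01. Agbl5 itself, at -0.83 ± 0.14 and with ranges that did not overlap, was not called in this comparison either (adjusted p = 0.974).

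On the FPKM scale, the order of levels in 3 of the 4 control libraries was Tnfaip3, Nfkbia, Rela, Nfkbib, Nfkbiz, Nfkb1, Rel, Nfkb2, Relb and Bcl3. Heterozygous 1 had Rela above Nfkbia, and these neighbours did not differ beyond their spread. Bcl3, last in every control library, was in place 7 in knockout 1, place 6 in knockout 2 and place 8 in knockout 3. Summed over the 5 subunits, the level was 21.9, 21.8 and 19.8 FPKM in knockout libraries, against 17.9 and 18.2 FPKM in heterozygous and 18.5 and 16.9 FPKM in wildtype libraries. Rela made up 66.1% to 71.9% of that sum in knockout and 68.4% to 72.8% in controls, so the makeup overlapped between the groups. Nfkbia and Nfkbib together stood at 1.01 to 1.20 times the subunit sum in knockout and at 1.05 to 1.22 times in controls, which overlapped as well. Bcl3 stood at 0.574, 0.643 and 0.343 times the sum of its partners Nfkb1 and Nfkb2 in knockout libraries, against 0.0734 and 0.0625 times in heterozygous and 0.0318 and 0.0426 times in wildtype libraries.

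Relb and Bcl3 lie on the same strand of chromosome 7, 179023 bases apart, and the interval from one to the other holds 17 annotated genes with them. This interval was looked at after the values of Bcl3 were known. Of its other genes 6 were tested and 1 was called, Gm16174 (ENSMUSG00000087593), an antisense RNA on the plus strand from 19816553 to 19818625, inside the span of Bcl3 and sharing 0 exon bases with it. Gm16174 had 3.01, 3.53 and 5.46 FPKM in knockout 1, 2 and 3, against 0.352 and 0 FPKM in heterozygous 1 and 2, and 0.340 and 0.330 FPKM in wildtype 1 and 2. The recovered reads were 16, 20 and 30 in knockout, against 2 and 0 in heterozygous and 2 and 2 in wildtype libraries. Its groups lay far apart, and knockout 3, the knockout library with the least Bcl3, had the most Gm16174. By limma the log2 difference against all controls was 1.97 ± 0.20 (SE, adjusted p = 0.00494), with knockout higher in 3 of 3 libraries, and the call held with each library left out in turn but not with a pseudocount of 0.1 (adjusted p = 0.0522). Gm16174 averaged 0.256 FPKM in controls, so it too passed the filter on low values only through knockout and had to differ to be tested. The libraries do not mark the strand, so unspliced Bcl3 RNA and Gm16174 cannot be told apart.

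None of the 5 other tested genes there passed by limma or voom, and 2 (Apoe and Nectin2) had an unadjusted p under 0.05. Apoe, which encodes a lipid carrier made by Müller glia, averaged 349 ± 38.9 FPKM in knockout (SD, n = 3) and 266 ± 43.0 FPKM in controls (SD, n = 4), with a log2 difference of 0.40 (limma, adjusted p = 0.320). Nectin2, an adhesion receptor, was at 0.24 (adjusted p = 0.338), and Bcam, Clptm1 and Tomm40 were at 0.14, -0.05 and -0.07. Gm16175, which shares 161 exon bases with Bcl3 on the opposite strand, had 0.610, 0.286 and 0 FPKM in knockout libraries, against 0.856 and 0 FPKM in heterozygous and 0.551 and 0 FPKM in wildtype libraries, so it overlapped between the groups.

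**Figure D3:**
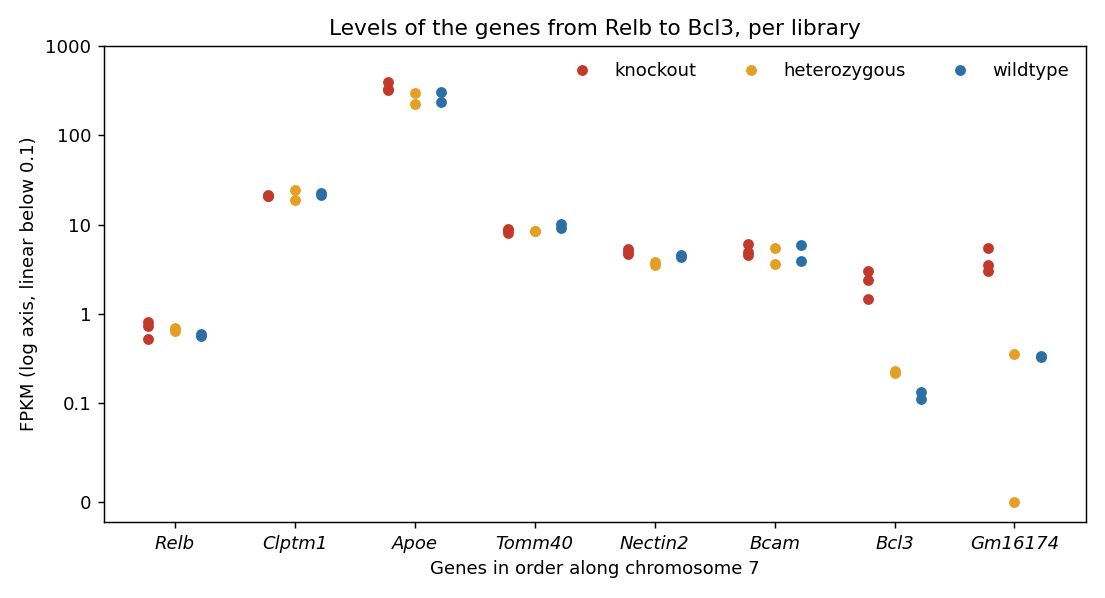
FPKM of each tested gene from Relb to Bcl3 on chromosome 7, and of Relb itself, in each library (points), with knockout left of heterozygous and wildtype; the axis is logarithmic above 0.1 FPKM and linear below. Bcl3 and Gm16174 are the genes whose knockout points stand far above the controls, while Clptm1, Tomm40, Bcam and Relb overlap.

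The rest of the pathway was followed in 113 genes grouped by role, of which 68 were tested. These lists were chosen with earlier results of these data known. Against all controls 40 of the log2 differences were positive and 28 negative, with a median of 0.05 beside 0.00 over all tested genes; on the TPM scale, where all genes shifted by -0.12, 25 were positive and 43 negative. By limma 1 of the 68, Gadd45b, was called, beside 0.614% of all tested genes, and 12 of the 68 had an unadjusted p under 0.05, beside 1891 of all 15472.

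Of 12 ligand genes 3 were tested and none was called (median log2 difference -0.09, 1 at an unadjusted p under 0.05, 0 called by voom). Il18, a cytokine released by inflammasomes, was at -0.16 (limma, adjusted p = 0.368), Il33, an alarmin of Müller glia, at -0.09 (adjusted p = 0.676) and Tnfsf12, which encodes TWEAK, at 0.08 (adjusted p = 0.707; negative on the TPM scale). Tnf and Il1b, the classical inducers, were below the filter: Tnf had 0.184, 0.0432 and 0 FPKM in knockout libraries, against 0 and 0.280 FPKM in heterozygous and 0.0834 and 0 FPKM in wildtype libraries. Il1b had 0.159, 0.223 and 0.115 FPKM in knockout libraries, against 0.0371 and 0.121 FPKM in heterozygous and 0.108 and 0.0695 FPKM in wildtype libraries. Both overlapped between the groups at levels of a few reads.

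Of 15 receptor genes 6 were tested, with a median of 0.13, and none was called by limma or voom, with 2 at an unadjusted p under 0.05. Tnfrsf1a, the main TNF receptor, had 4.43, 3.53 and 3.95 FPKM in knockout libraries, against 2.76 and 2.66 FPKM in heterozygous and 2.90 and 2.30 FPKM in wildtype libraries. Its groups did not overlap, but the log2 difference of 0.44 did not pass (adjusted p = 0.129). Tnfrsf12a, the TWEAK receptor, was at 0.53 (adjusted p = 0.309), with 2.35, 3.38 and 2.12 FPKM in knockout libraries, against 0.953 and 1.55 FPKM in heterozygous and 1.98 and 1.51 FPKM in wildtype libraries. Ltbr, the lymphotoxin receptor that feeds the alternative pathway, was at 0.25 (adjusted p = 0.488).

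Between receptors and IKK, 21 of 24 adaptor and kinase genes were tested, and none was called by limma or voom (median 0.01, 3 at an unadjusted p under 0.05). Malt1, without recovered reads, was not tested by voom. Map3k14, which encodes NIK, was at 0.33 (limma, adjusted p = 0.292). Rnf31 and Rbck1, parts of the complex that builds linear ubiquitin chains, were at 0.28 (adjusted p = 0.292) and 0.15 (adjusted p = 0.350). Of the 5 IKK genes 4 were tested, with a median of -0.05, and none was called by either tool or had an unadjusted p under 0.05: Chuk (IKK-alpha) was at -0.09, Ikbkb (IKK-beta) at 0.11 and Ikbkg (NEMO, the scaffold) at -0.12, with adjusted p of 0.606, 0.586 and 0.498. The kinase step thus showed no called gene, which does not show that the levels were equal.

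Of 17 other inhibitors and negative regulators 14 were tested, with a median of 0.05, 2 at an unadjusted p under 0.05 and 0 called by limma. Tnip2 encodes ABIN-2, a protein that binds A20. The gene lies on chromosome 5 from 34496087 to 34513991, and Agbl5 lies on the same chromosome from 30888694 to 30906965. Whether this position near the knocked-out gene bears on its level was not tested. Tnip2 had 26.5, 29.1 and 28.8 FPKM in knockout libraries, against 14.6 and 20.6 FPKM in heterozygous and 18.0 and 17.8 FPKM in wildtype libraries. Its groups did not overlap and the log2 difference was 0.65 ± 0.11 (SE), which missed the threshold by limma (adjusted p = 0.0530) and passed by voom on recovered reads (adjusted p = 0.00629), without heterozygous 1 (adjusted p = 0.0325) and without heterozygous 2 (adjusted p = 0.0423). Tax1bp1, an adaptor through which A20 reaches its substrates, was at 0.16 (limma, adjusted p = 0.262), and Otud7b, another deubiquitinase, at 0.10 (adjusted p = 0.479; negative on the TPM scale). All 8 coactivator and corepressor genes were tested by limma and none was called (median 0.05, 1 at an unadjusted p under 0.05). None was called by voom, which could not test Kat5 and Hdac3 for want of recovered reads. Hdac1 was at 0.08 (negative on the TPM scale) and Hdac3 at -0.09.

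Of 32 genes listed as targets of the factor 12 were tested, with a median of 0.14, 3 at an unadjusted p under 0.05 and 1 called, Gadd45b. The list was chosen with earlier results of these data known, so the call is no independent test of Gadd45b. This gene, induced by stress and by NF-kappa-B, encodes a protein that restrains the JNK pathway. It had 10.4, 11.5 and 8.05 FPKM in knockout 1, 2 and 3, against 2.67 and 1.98 FPKM in heterozygous and 2.24 and 2.96 FPKM in wildtype libraries. Every knockout library was above every control library, and the difference was larger than the spread within either. The log2 difference was 1.66 ± 0.14 against all controls (limma, adjusted p = 0.00196), 1.72 ± 0.17 against heterozygous (adjusted p = 0.0171) and 1.60 ± 0.17 against wildtype (adjusted p = 0.0226). Against all controls it passed with each library left out in turn, whereas the call against wildtype was lost without knockout 1, knockout 2, wildtype 1 or wildtype 2 (adjusted p from 0.0930 to 0.224), and that against heterozygous without knockout 1, knockout 2, heterozygous 1 or heterozygous 2 (adjusted p from 0.0723 to 0.0829). The other leading targets did not pass: Irf1, a transcription factor of the interferon response, was at 0.37 (adjusted p = 0.298), and Xiap, an inhibitor of caspases, was at -0.25 (adjusted p = 0.124). Of the 32 targets 20 were below the filter, none with a mean above 0.430 FPKM, and 5 (Sele, Ccl20, Il6, Csf2 and Saa3) were listed at 0 in all 7 libraries.

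**Figure D4:**
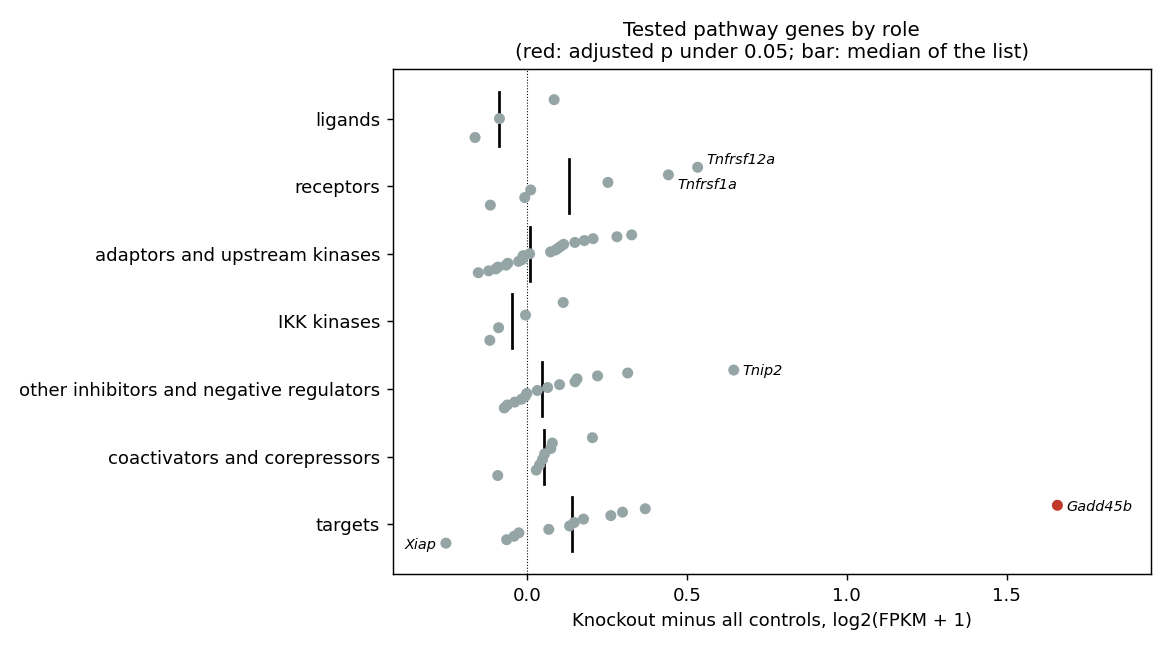
Log2 difference of knockout minus all controls on the log2(FPKM + 1) scale for the 68 tested pathway genes (points), grouped by role, with the median of each list as a black bar; red marks an adjusted p under 0.05 by limma. The list medians run from -0.09 to 0.14, and Gadd45b, at 1.66, is the single red point.

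Marker RNA of some cell types, namely of microglia and macrophages and 1 glial marker, Gfap, also differed between knockout and controls. Of 12 microglia and macrophage markers 9 were tested and 5 were higher in knockout than in all controls by limma (Csf1r, Ctss, C1qa, C1qb and C1qc, adjusted p from 0.00183 to 0.0343). The calls of Csf1r and C1qb held with each library left out, while Ctss, C1qa and C1qc each lost theirs without knockout 2 (adjusted p of 0.0575, 0.173 and 0.0544) and without knockout 3 (adjusted p of 0.0623, 0.0521 and 0.0504). C1qa lost it also without knockout 1, heterozygous 1 or either wildtype library, and C1qc without knockout 1 (adjusted p = 0.0608). The summed level of all 12 markers was 65.7, 69.3 and 67.5 FPKM in knockout libraries, against 34.7 and 37.9 FPKM in heterozygous and 37.8 and 35.0 FPKM in wildtype libraries. P2ry12, which marks resident microglia, was at 0.24 (adjusted p = 0.451), and Aif1 was below 1 FPKM in all libraries. Gfap, a marker of astrocytes and of reactive Müller glia, was higher in knockout by 1.49 ± 0.22 (limma, adjusted p = 0.0324; the call held without heterozygous 1 and was lost when any other library was left out, with adjusted p up to 0.157), the 1 call among 8 Müller and astrocyte markers, whose sum was 1102 to 1213 FPKM in knockout and 1042 to 1178 FPKM in controls. In whole tissue, more cells of a type and more RNA per cell cannot be told apart, and the part of these cells in the levels of Bcl3, Nfkb2, Nfkbiz, Gm16174 and Gadd45b was not tested.

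Lymphocyte and granulocyte markers were near 0: none of 12 reached the filter, and their sum was 0.681 to 0.952 FPKM in knockout and 0.770 to 1.24 FPKM in controls. Cd3e, which encodes a CD3 chain of the T cell receptor complex, was listed at 0 in every library. Rod markers summed to 7886 to 8014 FPKM in knockout and to 8629 to 9787 FPKM in controls, with 0 of 8 called, and endothelial markers overlapped between the groups (39.8 to 42.8 FPKM in knockout and 33.4 to 43.6 FPKM in controls). Lens markers summed to 7268, 26.1 and 41.0 FPKM in knockout libraries, against 4405 and 36.0 FPKM in heterozygous and 64.4 and 30.1 FPKM in wildtype libraries. Without both lens-rich libraries the log2 difference against all controls was 1.46 for Bcl3 and -0.32 for Tnfaip3, neither of which was then called, and 1.66 for Gadd45b (limma, adjusted p = 0.0490). Summed pigment epithelium markers (181 to 340 FPKM in knockout and 152 to 322 FPKM in controls) and corneal markers (31.1 to 37.5 FPKM in knockout and 33.2 to 37.2 FPKM in controls) overlapped. The pigment epithelium sum includes Rlbp1 (106 to 119 FPKM), which Müller glia share. Its other markers went both ways and none was called. Ttr was at 1.02, with 50.8 to 86.6 FPKM in knockout and 21.4 to 45.2 FPKM in controls, and Rpe65 at 0.76. Tyrp1, Pmel, Dct and Tyr were at -0.65, -0.61, -0.24 and -0.05.

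The tested genes with protein names whose log2 levels followed Bcl3 most closely over the 7 libraries were Igsf11 (Pearson r = 0.995), Klhl29 (0.987) and Stat3 (0.983). Stat3, a transcription factor downstream of cytokine receptors, had 18.8, 19.5 and 16.8 FPKM in knockout libraries, against 7.38 and 7.33 FPKM in heterozygous and 7.64 and 7.51 FPKM in wildtype libraries. As for Bcl3, knockout 2 was highest and knockout 3 lowest of the knockout libraries. Those closest to Tnfaip3 were Hist2h2be (0.991), Nifk (0.989) and Spata1 (0.983). Hist2h2be, a histone H2B gene, had 7.10, 6.84 and 7.34 FPKM in knockout libraries, against 9.30 and 8.77 FPKM in heterozygous and 9.34 and 9.21 FPKM in wildtype libraries. These correlations describe 7 libraries that fall into the same genotypes, and carry no test.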

How the data were processed

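The authors deposited FPKM for 54532 genes in 7 libraries. The labels' protocols describe RNA extraction from retina. TopHat2 2.0.9, HTSeq, DESeq and Bowtie2 2.0.6, and the builds mm10 and GRCm38, are named in the submitters' processing notes with no order; the annotation release is not given in the sources used here. Gene lengths and positions came from GENCODE M21. With them 96.8% of the FPKM values above 0 were whole reads within 0.01, and reads were recovered for 8 of the 10 genes, not for Rela and Nfkb2.

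FPKM were analysed as log2(FPKM + 1). The 15472 genes that averaged 1 FPKM or more were tested by limma 3.58.1 (R 4.3.3, empirical Bayes with trend), with Benjamini-Hochberg adjustment over all of them and a threshold of 0.05. One fit over 3 genotypes had 4 residual degrees of freedom, and the fit against all controls had 5. The test was tried on simulated data. Members and pathway lists were chosen with earlier results of these data known. Named were all members, called pathway genes, up to 3 per list by smallest p, and the 3 genes most like Bcl3 and Tnfaip3; Tnf, Il1b, the marker genes and the genes near Bcl3 were added, and 1 gene that the rule named is not reported here. Alternatives were the pseudocount, no filter, the TPM scale, a replicate block, voom on recovered reads, each library left out, and both lens-rich libraries left out. Voom tested fewer genes, the 14795 that had recovered reads.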

Additional observations from a re-analysis of the deposited data

How the results depend on the processing

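Genes called against wildtype numbered 50, with 28 on the TPM scale, 3 with the replicate block, 77 by voom, 3 without both lens-rich libraries and 5 to 53 when each library was left out. Against heterozygous they numbered 49, with 0 under the replicate block, 77 by voom, 0 without the lens-rich libraries and 14 to 40 when each library was left out. Between heterozygous and wildtype they numbered 0, with 19 without the filter and 0 to 3 when each library was left out. Against all controls they numbered 95, with 63 on the TPM scale, 38 with the replicate block, 148 by voom, 48 without the lens-rich libraries and 45 to 90 when each library was left out. Pathway genes called numbered 1 against wildtype, with 0 without the filter, under the replicate block and without the lens-rich libraries, and 0 to 2 when each library was left out. Against heterozygous they numbered 1, with 0 under the replicate block and without the lens-rich libraries, 2 by voom and 0 to 1 when each library was left out. Against all controls they numbered 1, with 2 by voom and 1 to 2 when each library was left out; the gene added was Tnip2. Gadd45b, from a list chosen with earlier results of these data known, passed against all controls under all 13 alternatives (adjusted p up to 0.0490). Gadd45b passed under 6 of 13 against wildtype and 7 of 13 against heterozygous. Gm16174 passed against all controls under 12 of 13 (adjusted p up to 0.0522), and under 0 against wildtype and 1 against heterozygous. It was looked at because of Bcl3 and passed the filter only through knockout, so its count is a description only. Numbers 1 and 2 are shared between genotypes. Same-numbered libraries deviated together between knockout and heterozygous (r of 0.430 and 0.271) but not between heterozygous and wildtype (-0.0176) or knockout and wildtype (0.0919 and -0.0233). The pair at 0.430 is the 2 lens-rich libraries, and knockout 3, which has no same-numbered partner, had r of 0.253 with heterozygous 2. With 2 heterozygous libraries, each r with one is the opposite of that with the other. The replicate block was therefore not taken as a pairing, and it leaves knockout 3 without a partner. The cause of the moves in the counts of calls was not tested, beyond fewer libraries where some are left out. Values of single genes at a few reads, such as Bcl3 and Gm16174 in controls, are limited by depth.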
